A study of Mus musculus with 6 samples.

Results

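The nuclear factor I (NFI) family of the mouse consists of Nfia, Nfib, Nfic and Nfix, and all 4 genes were found by name in a table of 22740 genes. The RNA came from B16-F3, a line of mouse melanoma cells, sorted by flow cytometry on the light scatter that intracellular melanin gives. High-pigmented cells (HPC) were compared with low-pigmented cells (LPC), with 3 libraries of each, and both populations were untreated cells of the same line. The family was chosen by the difference between HPC and LPC in its member Nfix, which was among the 5 of 11921 tested genes that passed in an earlier examination of these counts. The difference of Nfix is therefore given as a description, with no p-value, while Nfia, Nfib and Nfic were brought in by their names.

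NFI proteins are transcription factors that share a conserved DNA-binding domain and bind DNA as homodimers or heterodimers. Their recognition site is the palindrome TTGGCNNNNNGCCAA, and single TTGGC cores are bound more weakly. The members overlap in what they bind and differ in where they act: Nfia is best known from the formation of glia, Nfib from lung and brain development, Nfic from tooth root formation, and Nfix from the fetal muscle programme and neural progenitors. In the mouse hair follicle, Nfib in the epithelial stem cells also restrains the neighbouring melanocyte stem cells, and in melanoma cells NFIB has been placed downstream of the transcription factor BRN2 (Pou3f2) and upstream of the histone methyltransferase EZH2.

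Total counts ran from 18131623 to 22186743 in the HPC libraries and from 14695822 to 18810435 in the LPC libraries. The line showed its lineage: 6 melanocyte markers (Mitf, Sox10, Pmel, Dct, Tyrp1 and Mlana) together held 32513 to 35318 CPM (counts scaled to a common library size) in HPC and 32204 to 34522 in LPC. The 11 markers of other cell types together held 3.83 to 5.52 CPM in HPC and 4.73 to 5.31 in LPC, and Ptprc, Krt14, Krt5, Hbb-bs, Cdh5 and Cd3e were at 0 in every library. Whether replicates were separate cultures or sorts is not stated in the labels, so the spread between libraries may be technical.

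Every HPC library had less Nfix than every LPC library. Its level, in CPM after composition scaling, was 10.2, 9.16 and 11.7 CPM in HPC replicates 1, 2 and 3, against 27.9, 25.6 and 32.6 CPM in the LPC replicates. The groups did not overlap, with a wide gap between the highest HPC library and the lowest LPC library. The raw counts behind these levels were 181, 203 and 230 in HPC and 414, 485 and 487 in LPC, for which counting error alone gives a coefficient of variation of 6.59% to 7.43% in HPC and 4.53% to 4.91% in LPC.

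Averaged over libraries, Nfix was at 10.3 ± 1.28 CPM in HPC, against 28.7 ± 3.56 CPM in LPC (SD, n = 3 each), a difference of 2.78-fold (log2 fold change -1.47, SE 0.16). A larger fold change in either direction was found for 1.11% of the tested genes. Since this same contrast chose Nfix, nothing is read from that rank. Within equally numbered libraries the log2 difference of Nfix, HPC minus LPC, was -1.45, -1.47 and -1.47 for replicates 1, 2 and 3, so its size differed little between the 3 numbers. In a bulk sample, fewer cells with Nfix mRNA and less Nfix mRNA per cell cannot be told apart.

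Nfia, Nfib and Nfic did not pass. Nfia measured 34.9, 29.8 and 31.0 CPM in HPC replicates 1, 2 and 3, against 43.4, 38.3 and 34.0 CPM in the LPC replicates. The lowest LPC library of Nfia lay below the highest HPC library, so the groups overlapped. Within equally numbered libraries the log2 difference of Nfia, HPC minus LPC, was -0.31, -0.36 and -0.14, with 1 sign throughout. The log2 fold change was -0.28 with an SE of 0.14 (edgeR quasi-likelihood test, Benjamini-Hochberg adjusted p = 0.61).

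Nfib measured 70.0, 73.1 and 60.9 CPM in HPC replicates 1, 2 and 3, against 101, 81.3 and 71.6 CPM in the LPC replicates. LPC replicate 1 stood apart from the other libraries, and LPC replicate 3 fell within the HPC range. The differences within equal numbers were -0.53, -0.15 and -0.23 for Nfib. The log2 fold change of Nfib was -0.31 with an SE of 0.15 (edgeR adjusted p = 0.58).

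Nfic pointed the other way, at 153, 158 and 196 CPM in HPC replicates 1, 2 and 3, against 145, 135 and 161 CPM in the LPC replicates. HPC replicate 3 was the highest of the 6 libraries, and LPC replicate 3 lay above HPC replicates 1 and 2. Within equal numbers Nfic differed by 0.08, 0.23 and 0.29, higher in HPC each time. The log2 fold change of Nfic was 0.20 with an SE of 0.13 (edgeR adjusted p = 0.71). With all 6 libraries, TMM scaling and no block, none of these 3 genes had an unadjusted edgeR p under 0.05, and none passed with DESeq2 or limma-voom.

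**Figure D1:**
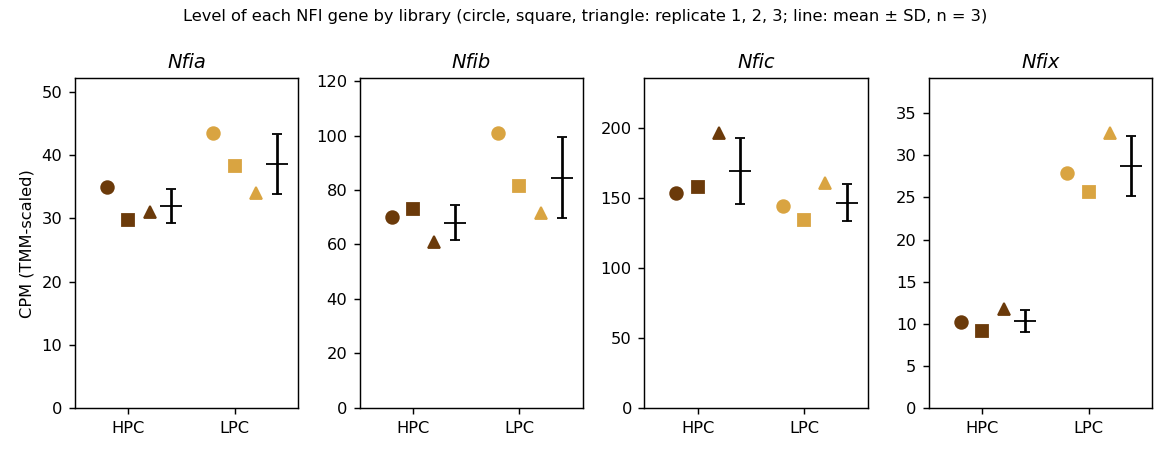
Level of each NFI gene in CPM (vertical axes, starting at 0 and scaled per gene) in the HPC and LPC libraries, with circles, squares and triangles for replicates 1, 2 and 3 and a line for the mean ± SD (n = 3). The 3 HPC libraries of Nfix lie between 9.16 and 11.7 CPM, below all LPC libraries, while the groups overlap for Nfia, Nfib and Nfic.

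Over all genes, 0.0419% passed the same test (5 of 11921, all lower in HPC), and groups that did not overlap were found with HPC lower for 7.18% of genes and with HPC higher for 7.16%. In the family, Nfix alone passed and alone had groups that did not overlap, and since the contrast chose the family nothing is read from these counts. With the replicate number as a block, which compares equally numbered libraries, 2.52% of genes passed (301, in either direction), and with DESeq2 without the block 1.88%. Nfix was among both sets, and nothing is read from that either, since both fits use the contrast that chose it. Nfia, Nfib and Nfic had blocked edgeR adjusted p of 0.21, 0.18 and 0.29 with log2 fold changes of -0.27, -0.30 and 0.20. The unadjusted p of the blocked edgeR fit was 0.029 for Nfia, 0.021 for Nfib and 0.060 for Nfic.

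The pass of Nfix without the block depended on which libraries were kept. It was lost without HPC replicate 1, 2 or 3 or LPC replicate 2, where the log2 fold change was -1.45, -1.39, -1.57 and -1.54, and kept when LPC replicate 1 (-1.49) or LPC replicate 3 (-1.37) was left out. In the blocked fit it was lost when both libraries numbered 2 were left out (-1.47). Nfic passed as higher in HPC in the blocked fit without the libraries numbered 1 (edgeR adjusted p = 0.016 at a log2 fold change of 0.27). This smaller fit had 1 residual degree of freedom and called 2947 genes, and the adjusted p of Nfic ran from 0.016 to 1.00 over its 17 alternatives.

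**Figure D2:**
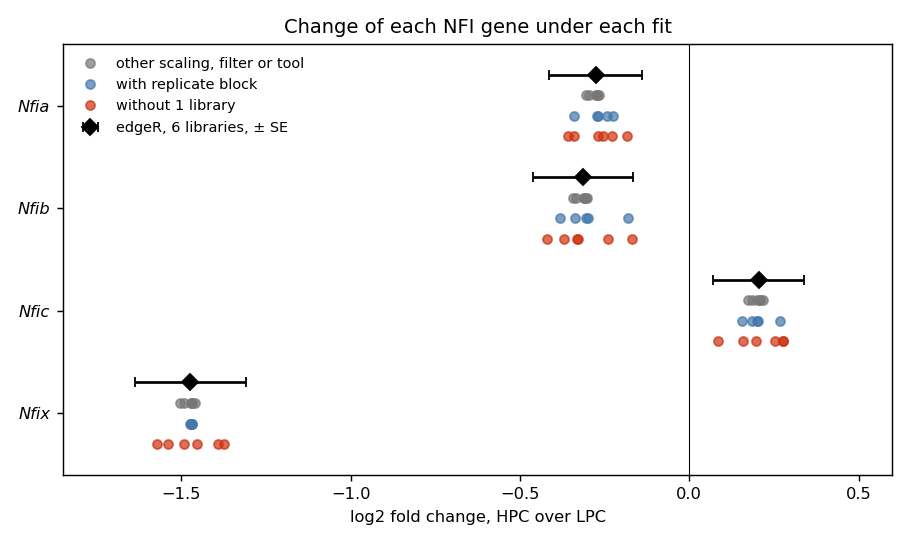
log2 fold change of each NFI gene, HPC over LPC (horizontal axis), with a diamond and SE for edgeR on all 6 libraries and dots for the other scalings, filters and tools, for the fits with the replicate block, and for the fits without 1 library. Nfix lies between -1.57 and -1.37 under every alternative shown, and Nfia, Nfib and Nfic keep their signs closer to 0.

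The order of the levels was the same in all 6 libraries: Nfic was the most abundant member, followed by Nfib, Nfia and Nfix. Reads of these libraries come from transcript 3' ends, so a long transcript does not gather more reads than a short one and CPM was compared between genes without dividing by length. Over the 6 libraries, the level of Nfic exceeded that of Nfib by 1.06 ± 0.40 on the log2 CPM scale (SD), Nfib exceeded Nfia by 1.11 ± 0.12, and Nfia exceeded Nfix by 1.02 ± 0.69. Each of the 3 pairs among Nfic, Nfib and Nfia had the same order in 6 of 6 libraries (exact two-sided sign-flip permutation test over libraries, p = 0.03125 for each pair, also after Benjamini-Hochberg adjustment over the 6 pairs of members). This is the smallest p that 6 libraries allow, and since equally numbered libraries deviated together it may be too small. The place of Nfix in the order is a description, because its level in HPC is what chose the family.

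The neighbours Nfia and Nfix were well separated in HPC and close in LPC. The level of Nfix was 0.293, 0.310 and 0.380 of that of Nfia in HPC replicates 1, 2 and 3, and 0.644, 0.669 and 0.959 of it in LPC replicates 1, 2 and 3. In LPC replicate 3 they had 508 counts for Nfia and 487 for Nfix, a gap within counting error. Among all tested genes ranked by mean level, Nfic stood above 88.5%, Nfib above 70.9% and Nfia above 47.3%. Nfix stood above 22.0% of tested genes in HPC and above 41.8% in LPC.

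The makeup of the family's mRNA differed accordingly. Nfix held 3.79%, 3.40% and 3.90% of the NFI counts in HPC replicates 1, 2 and 3, against 8.82%, 9.15% and 10.9% in the LPC replicates. Nfic held 57.1%, 58.5% and 65.5% in HPC and 45.7%, 48.1% and 53.8% in LPC, so for both genes the groups did not overlap. Nfia averaged 11.5% ± 1.39 in HPC and 12.9% ± 1.35 in LPC, and Nfib 24.5% ± 3.66 in HPC and 28.3% ± 3.99 in LPC (SD, n = 3 each). The summed level of the 4 genes was 279 ± 17.8 CPM in HPC, against 299 ± 18.5 CPM in LPC. Shares are bound to sum to the whole, and since they use the contrast that chose the family they are given with no test.

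**Figure D3:**
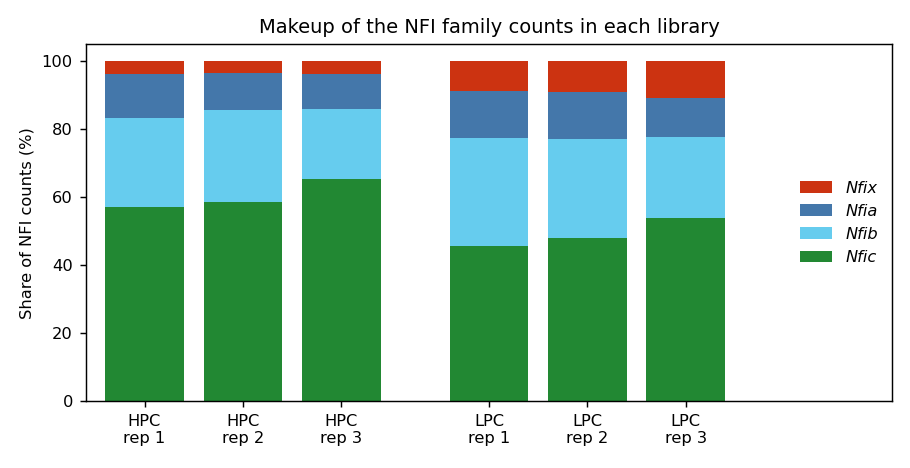
Share of the NFI counts (vertical axis, percent) held by Nfic, Nfib, Nfia and Nfix in each of the 6 libraries, stacked from bottom to top. The Nfix segment is 3.40% to 3.90% in HPC and 8.82% to 10.9% in LPC, and Nfic is the largest segment in every library.

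The ratio of Nfix to Nfic varied least within a population. The level of Nfix was 0.0670, 0.0587 and 0.0601 of that of Nfic in HPC replicates 1, 2 and 3, and 0.194, 0.191 and 0.203 of it in the LPC replicates. On the log2 scale the SD of this ratio between libraries was 0.10 in HPC and 0.05 in LPC, where counting error alone gives 0.10 in HPC and 0.07 in LPC. The ratios to Nfia and Nfib spread more, with SDs of 0.20 and 0.31 in HPC and 0.32 and 0.37 in LPC, above the 0.08 to 0.12 of counting error. Nfix and Nfic were both highest in the library numbered 3 of each population.

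Genes whose profile over the 6 libraries was nearest to that of Nfix were found by the Euclidean distance between log2 CPM values, each gene centred on its own mean, over 9884 named genes with a mean of at least 5 CPM. The nearest was Ramp2, which encodes an accessory protein of calcitonin-type receptors, at a distance of 0.51, followed by Kmt2a, a histone H3 lysine methyltransferase gene (0.56), Pde3a, a cyclic nucleotide phosphodiesterase gene (0.59), Ptgfrn (0.59) and Rgs7bp (0.63). Ramp2 was at 5.87 ± 1.14 CPM in HPC, against 13.5 ± 0.81 CPM in LPC, and Kmt2a at 243 ± 48.0 CPM in HPC, against 718 ± 108 CPM in LPC (SD, n = 3 each). The median gene lay at 1.88 from Nfix, and 31 genes lay within 1. The nearest gene to Nfia was Trmt1 (0.12), to Nfib Erf (0.10) and to Nfic Tfdp2 (0.09). For those members 3139, 2339 and 3338 genes lay within 0.5, so a small distance to them says little. All of these profiles share the same 6 libraries. The profile of Nfix is mostly the difference between HPC and LPC that chose the family. Its nearest genes are thus other genes much lower in HPC, with log2 fold changes from -1.56 (Kmt2a) to -1.13 (Ptgfrn). Nearness to Nfix is given as a description.

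**Figure D4:**
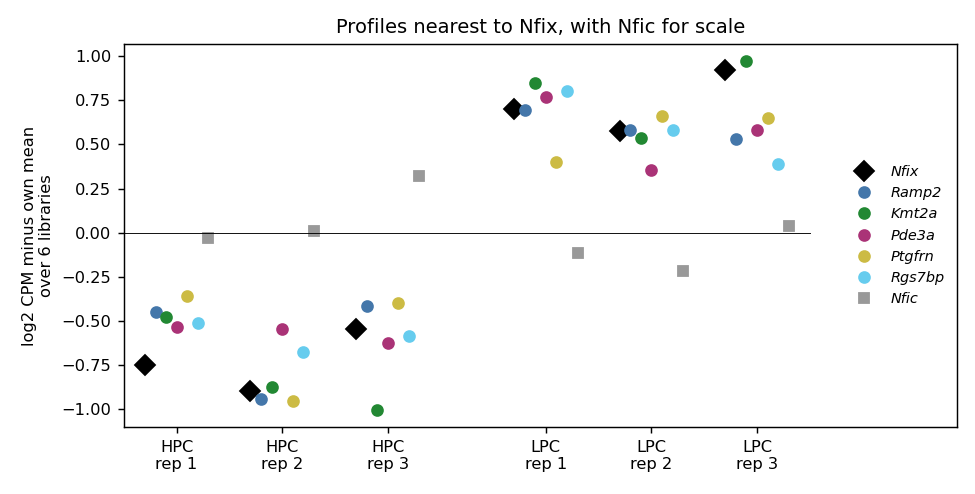
log2 CPM minus the gene's own mean over the 6 libraries (vertical axis) for Nfix (diamonds), its 5 nearest genes (circles) and Nfic (squares), in each HPC and LPC library. Nfix lies between -0.90 and -0.55 in HPC and between 0.58 and 0.92 in LPC, and Nfic stays between -0.22 and 0.32.

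In the GRCm38 assembly with GENCODE M21 annotation, Nfix (ENSMUSG00000001911) spans bases 84699876 to 84800344 of chromosome 8 (minus strand) and has 5 coding transcripts of 9 to 11 exons that end at 5 different positions. Nfia (ENSMUSG00000028565) spans bases 97772734 to 98118874 of chromosome 4 (plus strand), and Nfib (ENSMUSG00000008575) bases 82290173 to 82705750 of the same chromosome (minus strand). Nfic (ENSMUSG00000055053) spans bases 81396186 to 81455635 of chromosome 10 (minus strand). Of the genes that overlap a member, 3 are in the count table, all on the opposite strand: Lyl1 and G430095P16Rik at Nfix, with 0 to 4 counts in a library, and E130114P18Rik at Nfia, with 2 to 10 counts. No stretch of 50 bases from the last 400 bases of a coding NFI transcript occurs in a transcript of another member. For Nfix, 3.28% of such stretches also occur in G430095P16Rik on the opposite strand, and for the other 3 members none occurs in any other gene.

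RefSeq windows from 250 bases before to 50 bases after a transcript start were matched for Nfix (4 windows), Nfia (1) and Nfic (1) on GRCm38.p6, and not for Nfib. The windows were searched on both strands for the NFI core TTGGC, which reads GCCAA on the other strand, and for the palindrome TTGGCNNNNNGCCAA, in which both cores also count singly. The core was present in 3 of the 4 Nfix windows and in neither the Nfia nor the Nfic window, and the palindrome in none of the 6. The start in the Nfia window, base 97581943 of chromosome 4, lies outside the GENCODE span of Nfia. The starts for Nfic (81427173) and Nfix (84772875 to 84780082) lie inside their genes, away from the outermost GENCODE starts (81455635 and 84800344). The contrast between members thus holds for these windows only. Over all 32851 windows of this length, 46.7% hold at least 1 core, 14.4% more than 1, and 0.0365% the palindrome. The Nfix window with the most cores is shown because it carries the family's own recognition letters on either side of a transcript start. It is chr8:84772826-84773125 on the minus strand, with the start at 84772875 and the cores in capitals.
Nfix: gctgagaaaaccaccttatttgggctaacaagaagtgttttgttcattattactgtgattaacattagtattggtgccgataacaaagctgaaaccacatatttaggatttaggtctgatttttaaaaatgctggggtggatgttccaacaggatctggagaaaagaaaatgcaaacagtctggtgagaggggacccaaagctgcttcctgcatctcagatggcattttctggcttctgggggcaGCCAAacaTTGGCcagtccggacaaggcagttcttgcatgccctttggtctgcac
These libraries read 3' ends and do not tell which start was used, and a match in letters is not a bound site.

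The 26 tested genes whose starts lie within 500 kb of that of Nfix had log2 fold changes from -0.35 (BC056474) to 0.33 (Fbxw9), with a median of -0.04. Of them, 6 had groups that did not overlap with HPC lower and 2 with HPC higher, against 7.18% and 7.16% of all tested genes. No neighbour passed with edgeR with or without the block, DESeq2 or limma-voom. An unadjusted edgeR p under 0.05 was found for 2 (Ier2 and BC056474), against 603 genes higher and 514 lower among all 11921 tested. These neighbour counts were not tested. The closest tested gene, Dand5, had a log2 fold change of -0.05. Around Nfic, 31 tested genes ran from -0.68 (BC025920) to 0.95 (Celf5), with a median of 0.06. Of these 31, 3 had groups that did not overlap with HPC lower and 1 with HPC higher. None of the 31 passed with edgeR with or without the block, DESeq2 without it or limma-voom. With DESeq2 and the block 1 passed (Mfsd12, adjusted p = 0.017), and 2 had an unadjusted edgeR p under 0.05 (Fzr1 and BC025920). The width of the window was chosen after the values of Nfix were seen.

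**Figure D5:**
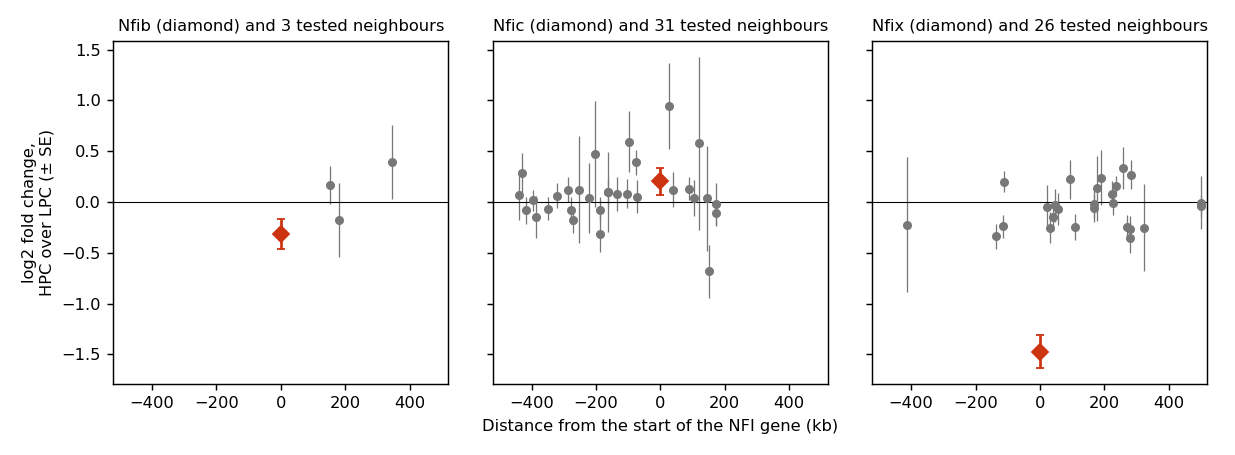
log2 fold change with SE, HPC over LPC (vertical axis), of genes by the distance of their start from that of Nfib, Nfic or Nfix in kb (horizontal axis, signed in the direction of rising chromosome position); Nfia has no tested gene in this range. The Nfix diamond lies at -1.47 and its 26 neighbours between -0.35 and 0.33.

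Among genes linked to NFI proteins by knowledge of other cells, Cdkn1a and Fabp7 passed in some fits and no other did in edgeR or DESeq2, with or without the block, or in limma-voom. In the axis of NFIB in melanoma and the melanocyte niche, 7 of 9 genes were tested and none passed with edgeR without or with the block, DESeq2 or limma-voom, with a median log2 fold change of 0.04 against -0.01 over all tested genes. Mitf, the lineage transcription factor, averaged 547 ± 62.9 CPM in HPC, against 529 ± 76.9 CPM in LPC. The Polycomb genes Suz12, at 279 ± 43.9 CPM in HPC, against 264 ± 33.1 CPM in LPC, and Ezh2, at 225 ± 37.3 CPM in HPC, against 226 ± 71.4 CPM in LPC, overlapped widely between the groups. The receptor gene Kit was at 42.4 ± 1.97 CPM in HPC, against 58.5 ± 20.8 CPM in LPC. Its groups did not overlap, at 40.5 to 44.4 CPM in HPC and 45.8 to 82.5 CPM in LPC. Kitl, the gene of the ligand of Kit, was named after its values were seen. Its groups were apart in the other direction, at 1.53 to 1.83 CPM in HPC and 0.739 to 1.42 CPM in LPC. These levels rest on low counts, 30, 34 and 36 in HPC and 21, 14 and 17 in LPC. Kitl did not pass (edgeR adjusted p = 0.65, and 0.31 with the block). Of the 7 tested genes of this list, groups did not overlap with HPC lower for 2 and with HPC higher for 1. Among all tested genes the shares were 7.18% and 7.16%. With so few genes, and with no test made, nothing is read from how many were apart.

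Pou3f2, which encodes BRN2, was the 1 member of that list with an unadjusted p under 0.05 and was singled out after its values were seen. It measured 2.02, 3.11 and 3.51 CPM in HPC replicates 1, 2 and 3, against 4.39, 4.07 and 6.23 CPM in the LPC replicates. The groups did not overlap, but the gene did not pass (log2 fold change -0.76, SE 0.30, edgeR adjusted p = 0.49, and 0.14 with the block). Its counts were low, from 36 to 93 in a library.

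Of 14 genes reported as NFI-regulated in neural and glial cells, 9 were tested and none passed with edgeR without or with the block, DESeq2 without it, or limma-voom. Their median log2 fold change was -0.08, against -0.01 over all tested genes. Groups did not overlap with HPC lower for 3 of the 9 and with HPC higher for 1, against 7.18% and 7.16% of all tested genes. With so few genes, and with no test made, nothing is read from these counts. The most abundant were Insc, a spindle orientation gene, at 262 ± 11.3 CPM in HPC, against 309 ± 26.7 CPM in LPC, and Aldoc, an aldolase gene of astrocytes, at 116 ± 45.4 CPM in HPC against 123 ± 73.9 CPM in LPC. Bbx, an HMG box gene, was at 94.0 ± 3.54 CPM in HPC against 93.4 ± 5.88 CPM in LPC, and Cdh2, the N-cadherin gene, at 69.0 ± 2.71 CPM in HPC against 67.1 ± 15.1 CPM in LPC. Fabp7, a fatty acid binding protein gene of glia, had the only unadjusted edgeR p under 0.05 of this list. The HPC libraries had 12.2 to 17.6 CPM of Fabp7, against 6.68 to 12.1 CPM in the LPC libraries, so the groups came close without overlapping. It did not pass with edgeR (adjusted p = 0.46, and 0.0504 with the block) and passed with DESeq2 when the block was used. That DESeq2 fit called 493 of the 11921 tested genes.

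Of 9 genes reported as NFI-regulated in muscle, blood, tooth and epithelial cells, 5 were tested. Their median log2 fold change was -0.07, against -0.01 over all tested genes. Cdkn1a, the gene of the cell cycle inhibitor p21 and also a target of p53, was the 1 that passed in any of these fits. It measured 586, 184 and 332 CPM in HPC replicates 1, 2 and 3, against 121, 104 and 161 CPM in the LPC replicates. Every HPC library lay above every LPC library, and HPC replicate 1 stood highest. The log2 fold change was 1.51 without the block (SE 0.38, edgeR adjusted p = 0.24) and 1.37 with it (edgeR adjusted p = 0.042), and DESeq2 called it without the block (adjusted p = 0.0019). Over all tested genes, 2.52% passed with edgeR and the block and 1.88% with DESeq2 without it. Groups apart with HPC higher were found for 7.16%. With 5 genes and no test made, nothing is read from the pass of 1. Ccnd1, the cyclin D1 gene, was at 103 ± 28.8 CPM in HPC, against 108 ± 2.05 CPM in LPC. Eno3, the muscle enolase gene, was at 70.5 ± 26.7 CPM in HPC against 66.4 ± 28.9 CPM in LPC, and Ckm, the muscle creatine kinase gene, at 0.48 ± 0.08 CPM in HPC against 0.74 ± 0.31 CPM in LPC. The levels of Ckm rest on very low counts, 7, 11 and 11 in HPC and 16, 9 and 10 in LPC.

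Of 5 transcription regulators known as partners or antagonists of NFI proteins, 4 were tested and none passed with edgeR without or with the block, DESeq2 or limma-voom, nor had an unadjusted edgeR p under 0.05. Sox10, a neural crest lineage factor, was at 733 ± 70.1 CPM in HPC, against 763 ± 35.5 CPM in LPC, and Ski, a transcriptional corepressor, at 113 ± 6.99 CPM in HPC against 122 ± 5.07 CPM in LPC. Sox9 was at 19.7 ± 4.48 CPM in HPC against 18.5 ± 6.57 CPM in LPC, and Foxa1 at 2.11 ± 0.20 CPM in HPC against 2.75 ± 0.72 CPM in LPC. The groups of all 4 overlapped.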

How the data were processed

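Per the labels' protocols, total RNA was made into 3' end libraries (QuantSeq FWD, Lexogen) and read on a NextSeq 500. The submitters' processing notes name STAR and the GRCm38 build. How reads were counted, with which annotation, strand setting and molecular identifiers, is not given in the sources used here. Raw, unnormalized counts per gene were deposited by the authors for 22740 genes. PCR copies may be counted, so counting errors given here cover counting only.

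filterByExpr left 11921 genes, all 4 NFI genes among them, and TMM factors scaled the libraries. HPC and LPC were compared in edgeR 4.0.16 (R 4.3.3) by its quasi-likelihood test, with no covariate, 4 residual degrees of freedom and Benjamini-Hochberg adjustment over all tested genes. Genes with an adjusted p under 0.05 were called. Fold changes are HPC over LPC, and SEs come from the F statistic. Levels are CPM with TMM factors, and log2 CPM has a prior count of 2. DESeq2 1.42.0, limma-voom (limma 3.58.1), other scalings, no filter, a replicate block and leaving out each library were alternatives. The edgeR, DESeq2 and limma-voom fits, with and without the block, were first tested on simulated counts that had no effect of the replicate number. The sign-flip test was not tested in this way.

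Equally numbered libraries deviated together from their group means (correlations over genes of 0.42, 0.35 and 0.65 for the numbers 1, 2 and 3). The pairing comes from the data, not the labels. Deviations of 3 libraries cancel out within a group, so this is weak evidence.

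The members and gene lists were chosen with earlier results of these data known. All members are named, with the 4 most abundant genes of each list, those that passed with or without the block, and the nearest profiles (5 for Nfix, 3 for other members, of which the first is given). Predicted gene models were left out as nearest profiles.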

Additional observations from a re-analysis of the deposited data

How the results depend on the processing

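The count of called genes was 5 with edgeR without the block. It was 28 with no filter, 224 with DESeq2, 301 with the replicate block in edgeR and 493 with the block in DESeq2. Leaving out 1 library gave 0 to 43 calls. It was 0 without HPC replicate 1, 2 or 3 or LPC replicate 2, where edgeR, the only tool run there, had 304 to 519 genes higher and 273 to 427 lower at an unadjusted p under 0.05. With the block and without both libraries of a number the count was 2947, 0 and 196 without the numbers 1, 2 and 3, on 1 residual degree of freedom.

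Each of the 4 NFI genes kept its sign in all 17 alternatives. Over the fits that left out libraries the log2 fold change ran from -1.57 to -1.37 for Nfix, from -0.36 to -0.18 for Nfia, from -0.42 to -0.17 for Nfib and from 0.08 to 0.28 for Nfic. With the block, Nfic passed without the libraries numbered 1 (0.27), and Nfix did not without those numbered 2 (-1.47). The causes of the lost calls were not tested. Fewer libraries were held both by fits that lost the call of Nfix and by leave-out fits that kept it.

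The level differences kept their signs without any 1 library, at 0.93 to 1.16 for Nfic minus Nfib, 2.06 to 2.25 for Nfic minus Nfia, 3.00 to 3.36 for Nfic minus Nfix, 1.07 to 1.13 for Nfib minus Nfia, 1.96 to 2.33 for Nfib minus Nfix and 0.87 to 1.21 for Nfia minus Nfix. Each pair without Nfix then had p = 0.0625, the smallest that 5 libraries allow (exact sign-flip permutation test). Since the order was the same in all 6 libraries, neither the signs nor this p could have come out otherwise. Shares of the NFI counts and ratios of Nfix to the other members moved by less than 1 SD in all alternatives run. Leaving out 1 of 3 libraries cannot move a group mean by 1 SD, and scaling of a library cancels out of a share. Nothing is therefore read from these small moves.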
